A study of Mus musculus with 2 samples.

Results

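The transcription factor p53, encoded by Trp53, and 9 of its target genes were followed in single cells of the mouse embryonic brain. The set was given by name and held 10 of the 32285 genes in the files: Trp53, Mdm2, Cdkn1a, Ccng1, Sesn1, Rrm2b, Bax, Bbc3, Pmaip1 and Eda2r. All 10 were found by symbol, and every one had UMIs (unique molecular identifiers, each counted as 1 captured RNA molecule) in both libraries.

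The study prepared 1 library of embryos with neural tube defects (NTD) and 1 control library with 10x Genomics Chromium 3′ chemistry. The NTD embryos, sorted by hindbrain malformation or spina bifida and often small and delayed, came from dams kept on a low-folate diet and injected intraperitoneally with 1.5 mg/kg methotrexate (MTX), a drug that blocks folate metabolism, at gestational day 7.5. The control embryos had closed neural tubes and came from saline-treated dams. Closure was scored between E9.5 and E10.5, while the diet of the control dams, the number of embryos pooled and the mouse strain were not stated in the labels. Each group was 1 library, so the treatment, the delay of the embryos, the mix of cell populations and the library itself cannot be told apart. No test across samples exists, no p-value is given, and every interval below is a 95% interval that covers counting error only.

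p53 is held at a low level by the ubiquitin ligase Mdm2, which is itself a p53 target and so closes a feedback loop. DNA damage and loss of nucleotides stabilise the p53 protein, which then raises genes of cell cycle arrest (Cdkn1a, Ccng1), of nucleotide supply and stress defence (Rrm2b, Sesn1) and of cell death (Bax, Bbc3, Pmaip1, Eda2r). Methotrexate lowers the supply of thymidine and purines, and excess p53 activity is known to disturb neural tube development. p53 is regulated mostly as a protein, and its protein level was not measured here.

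After removal of called doublets, 15530 control cells with a median of 2167 UMIs and 16657 NTD cells with a median of 2434 UMIs remained. They formed 26 clusters, of which 19 carried enough markers to be named, giving 11 class names, and no gene of the p53 lists was among the variable genes used for clustering. In control and NTD respectively, neural progenitor-like cells numbered 2239 and 4126, neuron-like cells 1385 and 2156, and mesenchyme or fibroblast-like cells 3308 and 3212. Sox2, Pax6, Hes5 and Msi1 marked all 3 neural progenitor-like clusters. The tissue was labelled brain, yet liver or yolk sac-like cells (151 and 3), muscle-like cells (79 and 3) and heart muscle-like cells (54 and 62) were also present. Of the progenitor-like cells, cluster 3 held most control cells (1357), and clusters 2 and 4 most NTD cells (2125 and 1356). Their top genes differed and included Hoxd4 in cluster 3, Nkx2-1 in cluster 2 and Otx2 in cluster 4. Ratios of the pooled class therefore compare unlike mixtures of progenitor-like cells. Among the mesenchyme-like clusters, 8 and 17 were over 90% control cells. In all, 105 barcodes occurred in both libraries, 0.565% of the control barcodes.

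Levels are given as CPM, the UMIs of a gene divided by all UMIs of that class and library and scaled to counts per 1e6. The NTD library stood lower for most genes on this scale: the median log2 ratio of NTD over control across all measured genes was -0.18 in neural progenitor-like, -0.15 in neuron-like and -0.17 in mesenchyme-like cells. Ribosomal protein genes took 7.85% of the UMIs of control and 12.4% of those of NTD neural progenitor-like cells, and their part in this shift was not tested. Ratios are therefore also given relative to that median, and relative to genes of like genomic span.

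The RefSeq promoter table (GRCm38.p6) matched 8 members with 12 start sites. The 250 bases before each start were searched for the p53 half-site, a motif that is its own reverse complement and so covers both strands, and for full sites, here a pair of half-sites at most 13 bases apart with at most 2 mismatches outside their cores. A half-site was found in 6 of the 12 windows (50%) against 7.13% of all 32851 windows, and a full site in 3 (25%) against 1.75%. The 6 stretches are shown as the letters that matched, and 3 of them hold only a single half-site. Capitals mark the half-sites, mismatches included, and each line reads 5′ to 3′ on the strand of its gene.
Cdkn1a: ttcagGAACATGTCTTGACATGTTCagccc
Bax: tcccAGGCAAGCTTtGAACTTGCGGcaat
Sesn1: tggGCGCTTGGCCttcAAGCTTGTTTttg
Mdm2: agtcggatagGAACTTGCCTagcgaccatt
Ccng1: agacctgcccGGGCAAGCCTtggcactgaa
Trp53: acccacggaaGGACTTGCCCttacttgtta
The Cdkn1a stretch lies at chr17:29090923-29090952 on the plus strand, with its 2 half-sites directly adjoining and 1 mismatch in total. The Bax stretch is at chr7:45467075-45467103 on the minus strand with 1 base between the half-sites, and the Sesn1 stretch at chr10:41887250-41887278 on the plus strand with 3 bases between them; both full sites have 2 mismatches. Single half-sites without a partner lie at chr10:117710925-117710954 (Mdm2, minus strand), chr11:40755452-40755481 (Ccng1, minus strand) and chr11:69580274-69580303 (Trp53, plus strand). The 3 windows of Bbc3, the window of Eda2r and the other windows of Cdkn1a and Sesn1 held no such letters. A match describes the sequence only, and binding was not measured.

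Trp53 itself (ENSMUSG00000059552, chromosome 11, 69580359 to 69591873) was slightly higher in the NTD library in most classes, and in the control library neuron-like cells had the lowest level of the 9 classes. In neural progenitor-like cells it had 92.8 CPM (85.2 to 100.9) in control and 106.5 CPM (100.7 to 112.6) in NTD, a log2 ratio of 0.20 (0.05 to 0.35). Intervals of the libraries overlap by under 1 CPM, and relative to the median of all genes the ratio was 0.38. In neuron-like cells Trp53 had 59.6 CPM (52.5 to 67.4) against 80.3 CPM (73.5 to 87.5), a log2 ratio of 0.43 (0.21 to 0.65). In mesenchyme-like cells it had 97.1 CPM against 112.0 CPM, a ratio of 0.21 (0.08 to 0.33). The control neuron-like interval lies below those of control progenitor-like and mesenchyme-like cells. Trp53 was higher in the NTD library in 8 of the 9 named classes with at least 50 cells in each library, and heart muscle-like cells had 76.3 against 71.4 CPM on 14 and 18 UMIs. Of all genes measured in the 9 classes, 14.9% were higher in every one, and the share higher in at least 8 was not counted. Within the progenitor-like class the Trp53 ratio was 0.49 (0.11 to 0.90) in cluster 4 but 0.05 (-0.22 to 0.33) in cluster 2 and 0.06 (-0.20 to 0.32) in cluster 3.

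Mdm2 (ENSMUSG00000020184, chromosome 10, 117688875 to 117710758), the ligase that marks p53 for degradation, did not follow Trp53. Neural progenitor-like cells had 79.8 CPM (72.8 to 87.3) in the control and 76.7 CPM (71.8 to 81.8) in the NTD library, so the intervals overlap. The log2 ratio was -0.06 (-0.22 to 0.11) by totals and 0.12 relative to the median of all genes, so its sign depended on the scaling. Mdm2 was lower by totals in 8 of 9 classes, although neural progenitor-like and mesenchyme-like cells (0.12 and 0.05) turned positive relative to the median of all genes. The exception was epithelium-like cells with 88.4 against 95.2 CPM. Neuron-like cells had 77.5 against 64.3 CPM, a ratio of -0.27 (-0.48 to -0.06), and the widest gap was in erythroid-like cells with 109.1 CPM (49 UMIs) against 49.9 CPM (20 UMIs), a ratio of -1.11 (-1.96 to -0.35). Among all genes measured in the 9 classes, 17.5% were lower in every one and 14.9% were higher in every one. Mdm2 was lower in 8 only, and the share of all genes lower in at least 8 was not counted.

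**Figure D1:**
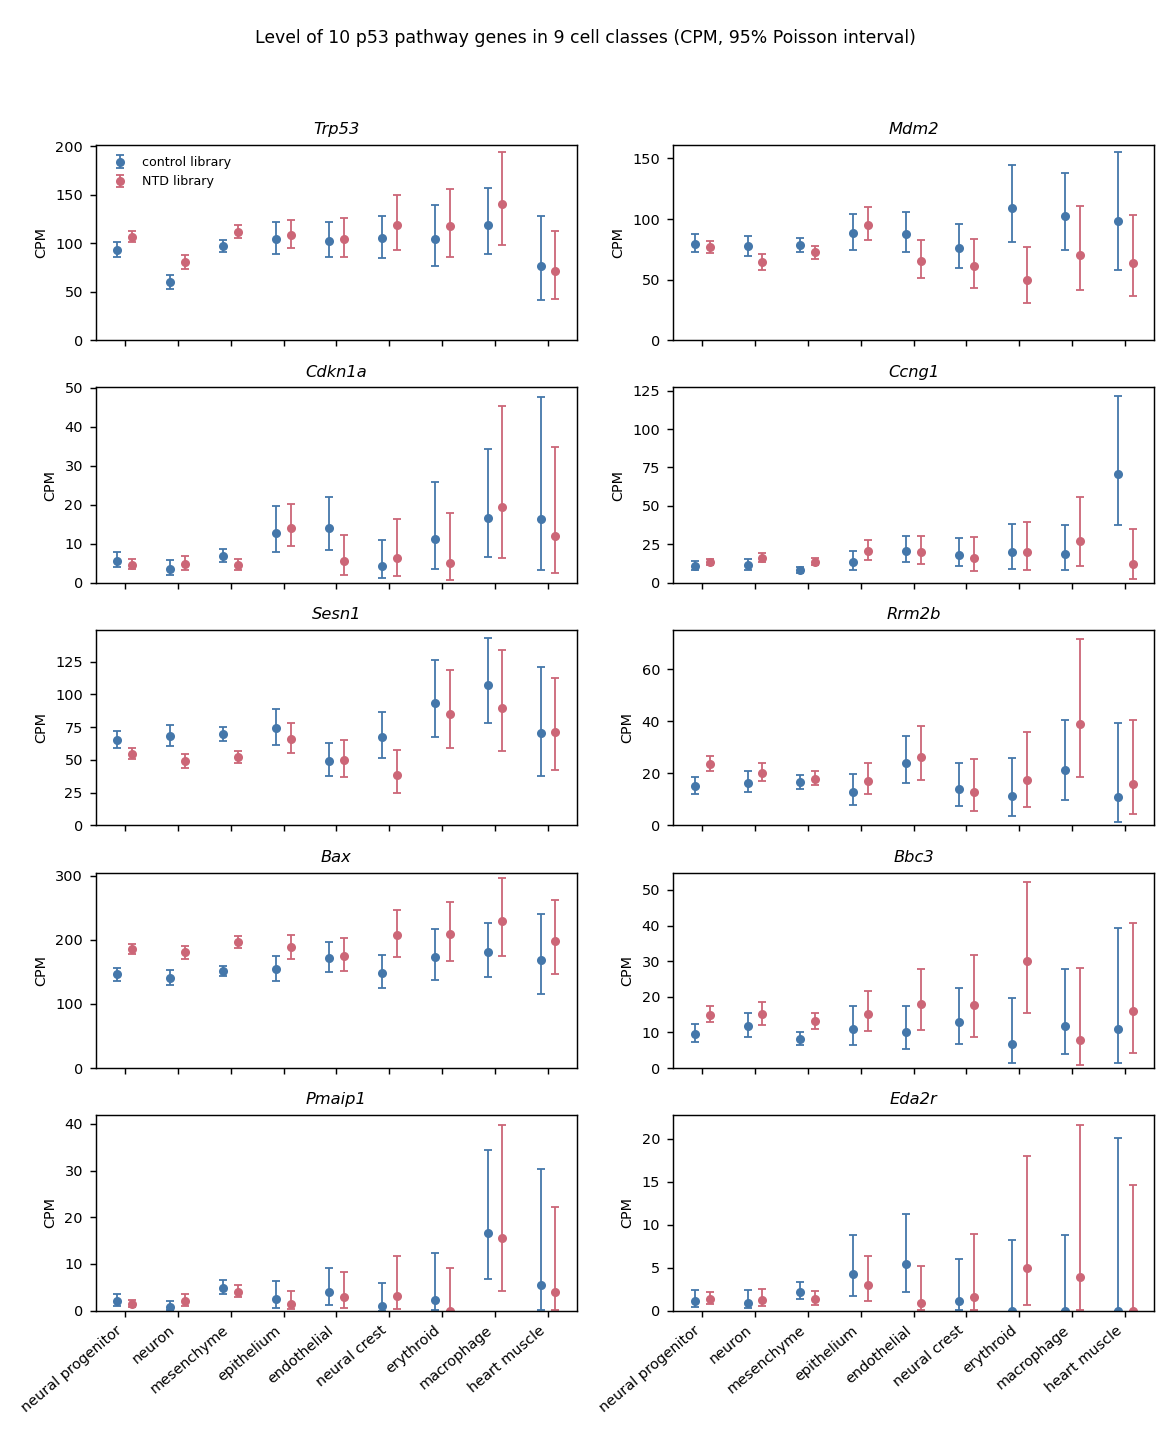
Level of each of the 10 genes in CPM (y axis, linear, from 0) in the 9 named classes with at least 50 cells per library (x axis). Points are the single control library (blue) and the single NTD library (red), bars are 95% Poisson intervals, and bars widen in the small classes at the right. Bax is higher in the NTD library in all 9 classes by totals, as were 14.9% of all genes measured in them. Relative to genes of like span its endothelial-like and heart muscle-like ratios were -0.04 and -0.23.

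Cdkn1a (ENSMUSG00000023067, chromosome 17, 29090976 to 29100727) encodes p21, the inhibitor of cyclin-dependent kinases through which p53 stops the cell cycle. It was sparse in the neural classes of both libraries. Neural progenitor-like cells had 5.69 CPM (3.94 to 7.95) from 34 UMIs in the control and 4.63 CPM (3.49 to 6.03) from 55 UMIs in the NTD library. The intervals overlap, and the log2 ratio of -0.30 (-0.94 to 0.37) would allow either direction. The ratio was -0.09, -0.16 and -0.60 within clusters 2, 3 and 4, each with an interval that spans 0. Neuron-like cells had 3.52 CPM (15 UMIs) against 4.87 CPM (31 UMIs), a ratio of 0.44 (-0.46 to 1.46). With the coarser clustering the class gave 0.95 (0.21 to 1.78). It then took in a cluster that shared the top genes Gm11817 and Clvs1 with unnamed cluster 5, given below. That value and the cluster 5 ratio may therefore rest on the same UMIs. Mesenchyme-like cells went the other way with 6.87 CPM (64 UMIs) against 4.57 CPM (45 UMIs), a ratio of -0.59 (-1.17 to -0.02). Without clusters 8 and 17, which held 11 and 28 of the control UMIs, it was -0.67 with an interval past 0 (-1.40 to 0.11).

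Cdkn1a also differed between classes. Epithelium or surface ectoderm-like cells had 12.9 CPM (7.98 to 19.7) and 14.2 CPM (9.48 to 20.3) in control and NTD, above both neural classes by their intervals. Macrophage or microglia-like cells had 16.7 CPM (7 UMIs) and 19.4 CPM (5 UMIs), with wide intervals. The highest level was in the 79 control muscle-like cells, with 96.5 CPM (63.0 to 141.4) from 26 UMIs in 20 cells, while the NTD library held 3 such cells with 1 UMI. These cells carried Myog, Actc1, Myl1, Tnnt1, Tnnc2 and Des, and Cdkn1a is known to be turned on as muscle precursors leave the cell cycle. Of the unnamed clusters, cluster 5, which carried 8 neuron and 7 neuroblast markers, had 2 Cdkn1a UMIs in 595 control cells (1.61 CPM) and 22 UMIs in 916 NTD cells (9.42 CPM). Its log2 ratio was 2.26 (0.53 to 5.68), resting on those few UMIs.

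Ccng1 (ENSMUSG00000020326, chromosome 11, 40748552 to 40755311) encodes cyclin G1, a p53 target that feeds back on Mdm2. Neural progenitor-like cells had 11.04 CPM (8.54 to 14.04) in control and 13.2 CPM (11.2 to 15.5) in NTD, a log2 ratio of 0.26 (-0.16 to 0.70). Neuron-like cells had 11.5 against 16.2 CPM, a ratio of 0.48 (-0.01 to 1.01). In mesenchyme-like cells 8.38 CPM (6.62 to 10.5) stood against 13.7 CPM, a ratio of 0.71 (0.30 to 1.13) that was 0.51 (-0.03 to 1.12) without clusters 8 and 17. In unnamed cluster 0, a low-UMI cluster, Ccng1 was instead 20.7 against 14.1 CPM, a ratio of -0.55 (-1.05 to -0.06), or -0.42 relative to the median. The control and NTD cells of that cluster may be unlike, as given below. Heart muscle-like cells of the control library had 70.9 CPM (37.7 to 121.2), but on 13 UMIs, against 11.9 CPM on 3 UMIs.

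The nucleotide and stress genes split. Rrm2b (ENSMUSG00000022292, chromosome 15, 37923952 to 37961318), the ribonucleotide reductase subunit that p53 turns on to supply nucleotides for repair, had 15.1 CPM (12.1 to 18.5) in control and 23.6 CPM (20.9 to 26.5) in NTD neural progenitor-like cells. The intervals do not overlap, and the log2 ratio was 0.64 (0.30 to 1.01). It lay between 0.49 and 0.77 within the 3 single clusters, but in each of them the CPM intervals of the libraries overlap. Control UMIs of Rrm2b numbered 21, 58 and 11 in clusters 2, 3 and 4. Neuron-like cells had 16.4 against 20.3 CPM, a ratio of 0.30 (-0.13 to 0.74). In mesenchyme-like cells Rrm2b had 16.5 against 18.0 CPM, a ratio of 0.12 (-0.20 to 0.44) that turned to -0.24 in thinned cells and to -0.04 without clusters 8 and 17.

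Sesn1 (ENSMUSG00000038332, chromosome 10, 41809935 to 41908424), which encodes sestrin 1, a restraint on mTORC1 signalling, stood lower by totals. Neural progenitor-like cells had 65.1 CPM (58.8 to 71.9) in control and 54.4 CPM (50.3 to 58.8) in NTD, a log2 ratio of -0.26 (-0.44 to -0.07) that was 0.02 relative to genes of like span. Neuron-like cells had 68.3 against 48.9 CPM, a ratio of -0.48 (-0.72 to -0.25), or -0.20 by like span. Mesenchyme-like cells had 69.7 against 51.9 CPM, a ratio of -0.42 (-0.59 to -0.26), or -0.16 by like span. Sesn1 spans 98490 bases, the longest of the 10 members.

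Bax (ENSMUSG00000003873, chromosome 7, 45461697 to 45466898), the pore-forming executioner of mitochondrial cell death, was higher in each of the 3 large classes by a similar factor. Neural progenitor-like cells had 146.2 CPM (136.6 to 156.2) in control and 186.4 CPM (178.7 to 194.3) in NTD, a log2 ratio of 0.35 (0.24 to 0.47). Neuron-like cells had 140.8 against 180.5 CPM, a ratio of 0.36 (0.21 to 0.50). Mesenchyme-like cells had 151.7 against 196.4 CPM, a ratio of 0.37 (0.27 to 0.47). In none of these 3 classes do the Bax intervals of the libraries overlap. The NTD library was higher in 9 of 9 named classes, with an interval above 0 in 5 of them. Of the 4442 genes measured in all 9 classes, 14.9% were likewise higher in every one. Relative to genes of like span, the Bax ratio turned negative in endothelial-like (-0.04) and heart muscle-like cells (-0.23). In neural progenitor-like cells the like-span ratio was 0.28. Within the 3 single progenitor-like clusters the Bax ratio by totals lay between 0.20 and 0.33. The CPM intervals overlapped in cluster 4 (136.7 to 194.5 in control, 175.1 to 202.9 in NTD) but not in clusters 2 and 3.

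Bbc3 (ENSMUSG00000002083, chromosome 7, 16308393 to 16318205) encodes PUMA, a BH3-only protein that frees Bax from its inhibitors. Neural progenitor-like cells had 9.53 CPM (7.22 to 12.3) in control and 14.9 CPM (12.8 to 17.3) in NTD, a log2 ratio of 0.64 (0.21 to 1.10). Mesenchyme-like cells had 8.06 against 13.1 CPM, a ratio of 0.70 (0.28 to 1.13), and neuron-like cells 11.7 against 15.1 CPM, a ratio of 0.36 (-0.15 to 0.89). The sign was the same in all 6 classes where Bbc3 was measured, and the share of all genes for which this holds was not counted. Within single progenitor-like clusters each Bbc3 interval spanned 0, with ratios of 0.40 to 0.78.

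The remaining death genes were near the limit of detection. Pmaip1 (ENSMUSG00000024521), which encodes the BH3-only protein NOXA, had 12 control and 16 NTD UMIs in neural progenitor-like cells, a log2 ratio of -0.59 (-1.75 to 0.64). Its highest levels among the 9 classes were in macrophage or microglia-like cells, with 16.7 CPM (7 UMIs) and 15.6 CPM (4 UMIs) in control and NTD. Eda2r (ENSMUSG00000034457, chromosome X, 97333840 to 97377216), a receptor of the tumour necrosis factor family, had 7 and 16 UMIs in neural progenitor-like cells, a ratio of 0.15 (-1.16 to 1.73). A difference in Pmaip1 or Eda2r was not detectable at this depth in the progenitor-like class. In neuron-like cells both fell under the minimum of 20 UMIs over the libraries.

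**Figure D2:**
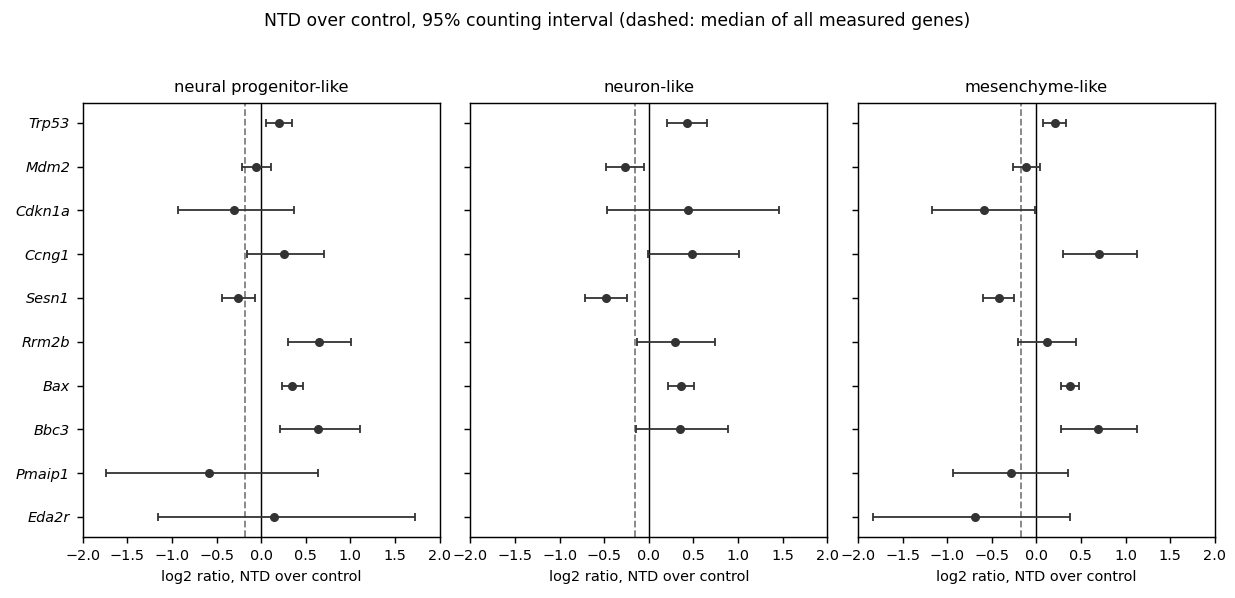
Log2 ratio of NTD over control CPM (x axis) for each gene (y axis) in neural progenitor-like, neuron-like and mesenchyme-like cells. Points are the ratio of 1 library over 1 library, bars 95% counting intervals, the solid line is 0 and the dashed line the median of all measured genes; Bax, Trp53 and Bbc3 lie to the right, Sesn1 lies to the left (in neural progenitor-like cells 0.02 relative to genes of like span), and Pmaip1 and Eda2r are missing in neuron-like cells for too few UMIs.

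The members had positive medians in neural progenitor-like and neuron-like cells, where the median of all genes was negative. A gene was counted as higher or lower when its log2 ratio was at least 0.32 from 0, which is a description and not a test. In neural progenitor-like cells 10 members were measured, 3 were higher (Bax, Bbc3 and Rrm2b) and 1 lower (Pmaip1), and the median log2 ratio was 0.17. Of all 15606 genes measured there, 14.3% were higher and 35.0% lower, with a median of -0.18. In neuron-like cells 8 were measured, 5 were higher (Trp53, Cdkn1a, Ccng1, Bax and Bbc3) and 1 lower (Sesn1), with a median of 0.36, beside 18.8% higher and 33.8% lower of all genes. The neuron-like intervals of Cdkn1a, Ccng1 and Bbc3 and the progenitor-like interval of Pmaip1 span 0, as given above. In mesenchyme-like cells 3 of 10 were higher and 3 lower, with a median of 0.00, beside 15.3% and 33.4%.

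Relative to the median of all genes, 6 members were higher and 1 lower in neural progenitor-like cells, beside 23.8% and 19.3% of all genes. The same scaling gave 6 higher and 1 lower of 8 in neuron-like cells (all genes 26.6% and 21.6%), and 4 higher and 2 lower of 10 in mesenchyme-like cells (all genes 23.9% and 19.4%). The choice of scaling thus moved the progenitor-like count by more than 1.5 times.

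The share of cells with at least 1 UMI depends on depth as well as level: Mdm2 had a lower CPM in NTD neural progenitor-like cells but a share of 18.9% against 18.7% in control. In neural progenitor-like cells Bax was seen in 32.0% (30.1 to 34.0) of control and 41.5% (40.01 to 43.04) of NTD cells, at median depths of 2182 and 2504.5 UMIs. With all cells sampled down to 1589 UMIs each (408 shallower control cells and 0 NTD cells dropped), the shares were 21.8% (19.9 to 23.7) and 26.7% (25.3 to 28.0). Rrm2b went from 3.89% and 6.52% to 2.35% (upper limit 3.15) and 3.59% (lower limit 3.04), and its thinned intervals overlap. Cdkn1a was seen in 1.52% (1.05 to 2.12) and 1.31% (0.98 to 1.70) of cells, and after thinning in 1.04% (0.63 to 1.62) and 0.56% (0.35 to 0.84). None of the classes is known to lack these genes, so their own background share from free RNA could not be read. A Cdkn1a share between 1% and 2% may hold such background. Globin genes took 1.14% and 1.24% of the UMIs of control and NTD neural progenitor-like cells. In erythroid-like cells they took 3.73% and 5.69%, and the part of free RNA in the member levels was not tested. In the control muscle-like cells 25.3% (16.2 to 36.4) had a Cdkn1a UMI.

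**Figure D3:**
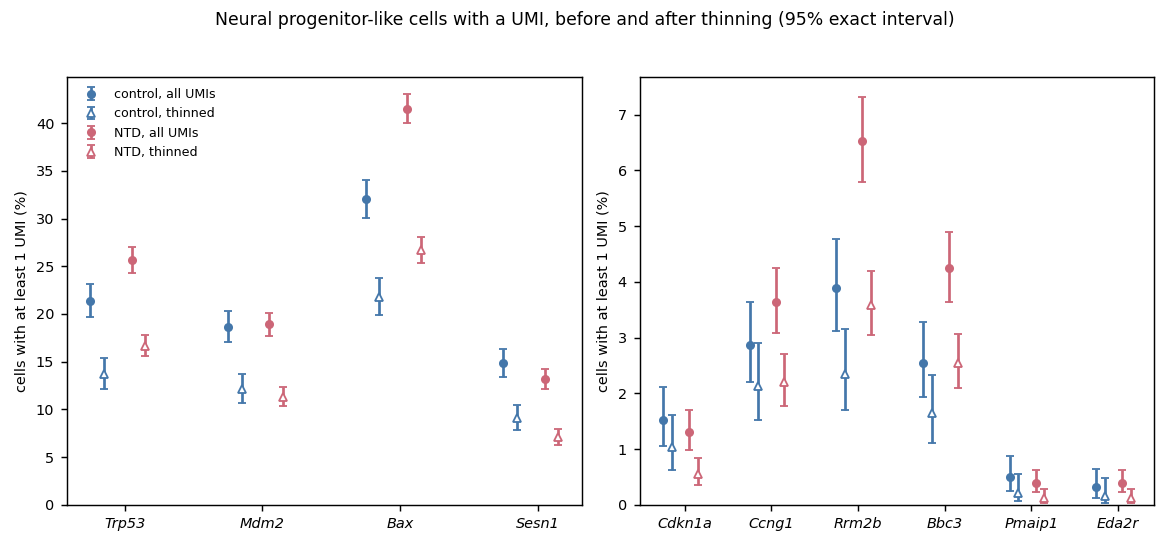
Share of neural progenitor-like cells with at least 1 UMI (y axis, percent) for each gene (x axis), in the control (blue) and NTD (red) library. Circles use all UMIs and open triangles cells thinned to 1589 UMIs, with exact 95% intervals; the Bax and Trp53 shares of the NTD library stay above those of the control after thinning.

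Cells that held a Cdkn1a UMI were compared with the rest for the other p53 targets, and most intervals spanned 0. There were 280 such control cells and 262 such NTD cells among all kept cells, with a median of 2639 and 2851.5 UMIs, deeper than the cells without. The 8 other targets summed to 377.5 CPM (338.4 to 419.9) in control cells with a Cdkn1a UMI and 349.6 CPM in those without, a log2 ratio of 0.11 (-0.05 to 0.27). In the NTD library the sums were 379.0 CPM (342.5 to 418.3) and 377.2 CPM, a ratio of 0.01 (-0.14 to 0.15). The further p53 targets gave ratios of 0.01 (-0.07 to 0.08) and -0.01 (-0.08 to 0.06). Among neural progenitor-like cells the 8 targets had a ratio of 0.25 (-0.17 to 0.61) over 34 control cells and -0.36 (-0.77 to -0.00) over 54 NTD cells. Among the single targets Ccng1 had 17.8 against 12.1 CPM in the control and 18.3 against 14.7 CPM in the NTD library, with intervals that span 0 (-0.26 to 1.27 and -0.42 to 0.97).

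Proliferation genes were present in these cells too. The 10 cell cycle genes, which include Mki67, Top2a and Pcna, summed to 2216 CPM (2120 to 2316) with and 2301 CPM without a Cdkn1a UMI in the control library. In the NTD library they summed to 2834 CPM (2732 to 2938) and 3014 CPM, a log2 ratio of -0.09 (-0.14 to -0.04). Among cells between the first and the third quartile of UMI totals the NTD ratio was 0.06 (-0.04 to 0.15), so its sign turned. Pcna alone had 120.3 against 165.9 CPM in the control library, a log2 ratio of -0.46 (-0.75 to -0.19) that was -0.24 (-0.74 to 0.19) in the middle range; this gene was singled out after its values were seen.

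**Figure D4:**
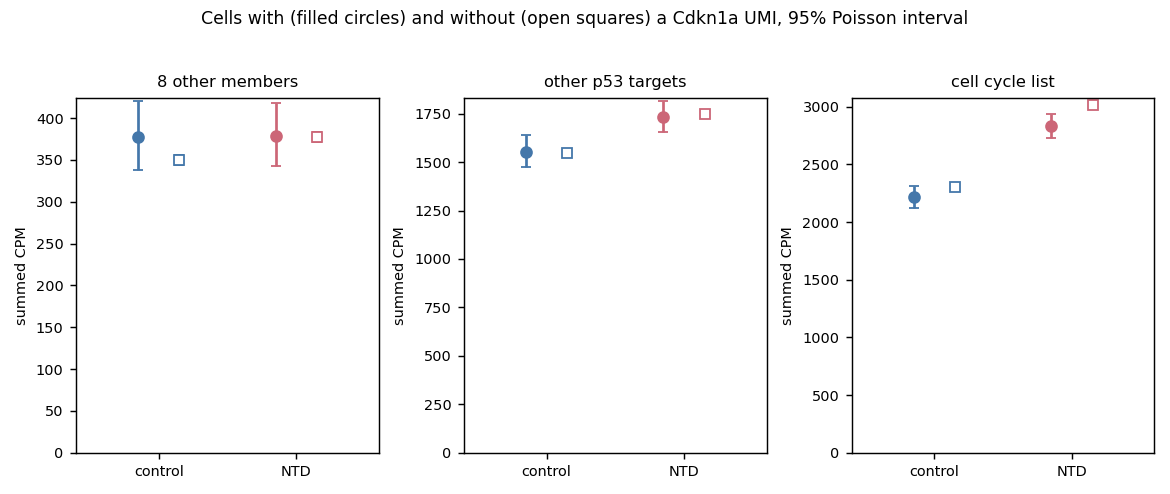
Summed CPM (y axis, linear, from 0) of the 8 other targets, the further p53 targets and the cell cycle list in cells with (filled circles) and without (open squares) a Cdkn1a UMI, by library (x axis). Bars are 95% Poisson intervals; the first and second panels show overlapping values within each library, and the NTD cell cycle sum is lower with (2834 CPM) than without (3014 CPM).

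Cluster 0, which had too even a mix of markers to be named and the lowest depth (a median of 1124 control and 1728.5 NTD UMIs), differed from the large classes. Trp53 had 151.1 CPM (138.3 to 164.7) in its control cells and 153.4 CPM (142.6 to 164.8) in its NTD cells, above the intervals of all 3 large classes. Bax had 290.4 and 307.8 CPM there, and Sesn1 14.03 and 11.7 CPM. Ribosomal protein genes took 19.6% and 22.0% of its UMIs, and the part of depth and RNA make-up in these levels was not tested. At resolution 2.0 an unnamed low-depth cluster with histone top genes held 383 control and 2450 NTD cells. Another, with Apoa1 and Afp among its top genes, held 2340 and 48. Both shared top genes with cluster 0, so ratios within cluster 0 may compare unlike cells. Rrm2b had a log2 ratio of 0.68 (0.18 to 1.20) in cluster 0 and 1.31 (0.23 to 2.17) in cluster 7, the last on 12 NTD UMIs.

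The sensors and regulators upstream of p53 were mixed in neural progenitor-like cells. Of 17 listed genes 15 were measured, and 3 were higher and 4 lower by totals, beside 14.3% and 35.0% of all genes. Their median log2 ratio was -0.23, which was -0.05 relative to the median of all genes. Rpl5 and Rpl11, ribosomal proteins that can bind Mdm2 and free p53, had 0.66 (0.62 to 0.71) and 0.54 (0.50 to 0.58), along with the higher ribosomal protein share given above. Chek1, the kinase that answers stalled replication, had 28.8 against 39.9 CPM, a ratio of 0.47 (0.22 to 0.73). Chek2, its counterpart for strand breaks, had 75.3 against 51.8 CPM, a ratio of -0.54 (-0.72 to -0.36). The median of the list was 0.05 relative to genes of like span.

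A further 43 p53 targets were split by role. Of 39 measured in neural progenitor-like cells, 5 were higher and 8 lower by totals, and 9 higher and 3 lower relative to the median of all genes. Over all genes the shares were 14.3% and 35.0% by totals and 23.8% and 19.3% relative to the median, so the share of higher genes was near that of all genes on both scales. In the arrest and feedback list 1 of 13 measured genes was higher and 2 lower by totals: Btg2, an antiproliferative gene also linked to neurogenic divisions, had 61.2 against 90.5 CPM, a log2 ratio of 0.56 (0.39 to 0.74). Btg2 also had 22.1 against 47.9 CPM in mesenchyme-like cells, a ratio of 1.11 (0.87 to 1.36). In the cell death list 2 of 9 were higher, Siva1 with 130.8 against 227.4 CPM (0.80, 0.68 to 0.91) and Aen, an apoptosis-enhancing nuclease, with 33.3 against 42.5 CPM (0.35, 0.11 to 0.60). The death-associated kinase gene Dapk1 was 1 of 2 lower, with 114.0 against 78.1 CPM (-0.55, -0.69 to -0.40).

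In the DNA repair and metabolism list 2 of 17 genes were higher and 4 lower by totals, beside 14.3% and 35.0% of all genes. Rps27l, a ribosomal protein relative induced by p53, had 194.7 against 346.2 CPM, a log2 ratio of 0.83 (0.74 to 0.93). It is itself counted in the ribosomal protein share, which was 7.85% in control and 12.4% in NTD neural progenitor-like cells. The part of that shift in the Rps27l ratio was not tested. Gpx1, a glutathione peroxidase, had 89.97 against 132.1 CPM, a ratio of 0.55 (0.41 to 0.70). Ddb2, which recognises ultraviolet lesions, had 40.5 against 28.2 CPM (-0.52, -0.76 to -0.28), and the translesion polymerase gene Polh had 46.3 against 33.7 CPM (-0.46, -0.68 to -0.23). These 4 genes were named for the size of their ratios, and they do not stand for the rest of the list.

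Lists of the death machinery kept apart from the p53 target lists, and 2 further lists, were read in neural progenitor-like cells by totals. Of all genes measured there, 14.3% were higher and 35.0% lower, and counts from lists this short are a description only. Of 11 BCL2 family genes 1 was higher and 2 lower, and Bcl2l11, which encodes the activator BIM, had 58.9 against 45.3 CPM (-0.38, -0.57 to -0.18). Of 8 caspase and apoptosome genes 1 was higher and 3 lower: Cycs, cytochrome c, had 137.0 against 209.8 CPM (0.61, 0.50 to 0.73). In the cell cycle list 4 of 10 were higher and 0 lower, led by Hmgb2 (0.75, 0.70 to 0.80), Pcna (0.69, 0.58 to 0.79) and Ube2c (0.68, 0.59 to 0.77). Of 12 genes that dissociation of tissue can induce, 7 were measured, 3 higher and 2 lower, with Jun at 0.50 (0.24 to 0.77), and their part in the member ratios was not tested. Alkbh1, the enzyme of the study's title, had 195.0 against 129.4 CPM (-0.59, -0.70 to -0.48).

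The genes most alike in level to 3 of the members were found over 28 sums of a class and library and 12478 genes, as a description. For Trp53 they were G3bp1 (Pearson's r 0.89), Hnrnpu (0.88) and Cdv3 (0.87). For Cdkn1a they were Cd9 (0.74), Hscb (0.74) and Tomm34 (0.69), and for Ccng1 Prr13 (0.78) and Plpp2 (0.74). The sums share 2 libraries and their depth.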

How the data were processed

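The deposited values are raw UMI counts for each gene and barcode. Per the file headers they came from Cell Ranger 7.0.1, and STAR and mm10 appear in the submitters' processing notes, while annotation and intron setting are not stated. No barcode failed the filter (at least 500 genes, 1000 UMIs, at most 10% mitochondrial UMIs). Scrublet in scanpy 1.11.5, with an expected rate of 0.8% per 1000 barcodes, marked 3042 control and 2399 NTD barcodes as doublets, which were dropped. These calls depend on that rate: at the default of 5% the automatic threshold marked 0 in both libraries. The libraries were clustered together without integration (2000 variable genes after leaving out 1 gene of the p53 lists, 30 components, 15 neighbours, Leiden resolution 1.0, leidenalg 0.10.2). A name needed 3 markers, each in at least 10% of cells at 1.25-fold, a lead of 2, and no more top genes of another class. Class names are rebuilt and may differ from the study's.

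UMIs were summed per class and library to CPM: 38625058 UMIs of kept control and 46827092 of kept NTD cells. Log2 ratios add 0.5 counts, and a gene was measured with at least 20 UMIs over both libraries. Intervals are exact Poisson (CPM), conditional binomial (ratios) and Clopper-Pearson (shares) at 95%. The counting steps were tested on simulated data. Coordinates and spans come from GENCODE M21 (GRCm38), which may differ from the authors' annotation. Named genes were the 10 members, up to 4 of each other list with the largest absolute ratio among those of at least 20 CPM, the 3 genes most alike to Trp53, Cdkn1a and Ccng1, and Alkbh1. The members and lists were chosen with earlier results of these data known. Alternatives were TMM scaling, scaling to genes of like span (20 bins), doublets kept, stricter cells, a UMI floor, thinning, other resolutions, single clusters and other UMI minimums. Of the listed genes, Lrdd was not matched and has no value here. Some genes that the naming rule takes in are not reported here.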

Additional observations from a re-analysis of the deposited data

Results flagged for a closer look

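For 2 members the ratio intervals of 2 cell populations lay on opposite sides of 0, and the difference between the populations was not tested. Cdkn1a had a log2 ratio of NTD over control of 2.26 in unnamed cluster 5, from 2 and 22 UMIs, against -0.59 in mesenchyme or fibroblast-like cells. Ccng1 had 0.71 in mesenchyme or fibroblast-like cells against -0.55 in unnamed cluster 0. The control cells of that cluster had a median of 1124 UMIs and may be unlike its NTD cells. Without clusters 8 and 17, which were nearly all control cells, the mesenchyme-like intervals spanned 0 for Cdkn1a (-1.40 to 0.11) and for Ccng1 (-0.03 to 1.12). The condition for the flag was then no longer met. The ratios kept their signs on fewer control UMIs, at -0.67 for Cdkn1a and 0.51 for Ccng1, so the wider intervals leave both contrasts undecided.

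Some levels stood out in classes left out of the comparison because the NTD library held 3 cells of each. Cdkn1a had 96.5 CPM in control muscle-like cells against 7.64 CPM in all kept control cells. Mdm2 had 121.0 CPM in control liver or yolk sac-like cells against 80.0 CPM in all kept control cells, and Bax 221.9 against 163.8 CPM.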

How the results depend on the processing

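No paired analysis was possible because each group had 1 library. The median log2 ratio of the members ran from 0.02 to 0.38 over 16 alternatives in neural progenitor-like cells, from 0.33 to 0.55 over 12 in neuron-like cells and from 0.00 to 0.18 over 13 in mesenchyme-like cells. In neural progenitor-like cells 6 members were higher with TMM scaling and 6 relative to the median of all genes. The number lower was 0 with doublets kept, with a minimum of 100 UMIs and within cluster 2 or cluster 3, and 2 with the stricter cell filter, the UMI floor of 1589, thinned cells, and resolutions 0.5 and 2.0; in neuron-like cells it was 0 under both TMM and like-span scaling. Of the further p53 targets, 11 were higher and 2 lower with TMM scaling, 9 and 3 relative to the median of all genes, 3 were lower relative to like span, 8 were higher in thinned cells, 9 higher within cluster 4 and 15 lower within cluster 2. The sign turned relative to genes of like span for Sesn1 (0.020) and for the medians of the sensors and regulators (0.050), the further cell death targets (0.01), the repair and metabolism targets (0.08), the BCL2 family (0.13) and the caspases (0.03). Within the middle UMI range the cell cycle ratio of cells with over cells without a Cdkn1a UMI was 0.087 in the control and 0.055 in the NTD library. The cause of these shifts was not tested. Thinning lowered 60 of 60 shares. Fewer UMIs per cell tend to lower any share, so this count does not bear on the differences between the libraries. Scaling relative to the median, leaving out shared barcodes, and adding clusters 11, 13 and 16 were chosen after seeing the data. Depth limits Cdkn1a, Pmaip1 and Eda2r most, at under 100 UMIs over both libraries in neural progenitor-like cells.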
